A study of Mus musculus with 31 samples.

Results

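The genes of oxidative phosphorylation were followed through livers of the BXD mouse panel, complex by complex. A probe was a member where the platform annotation gave it 1 gene and that gene's symbol began with Nduf, Uqcr, Atp5 or Cox4 to Cox8, was 1 of the Sdh subunit symbols, or was Cyc1. This took in 87 probes of 86 genes, out of 21765 probes tested, and all 87 had a value on every array. Complex I had 32 probes, its Ndufaf assembly factors 7, complex II 4, complex III 9, complex IV 17 and complex V 18. Ndufa4, once listed under complex I, was placed with complex IV, where the protein is now assigned. The probes named Ndufs5-ps and Atp5k-ps1 are annotated to pseudogenes, and whether they also bound the parent transcripts was not tested.

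The tested samples were 31 BxD/TyJ strains, recombinant inbred lines from a cross of C57BL/6J with DBA/2J in which each locus is fixed for one parental allele. For each strain, whole liver RNA of 3 male mice aged 8 weeks was mixed, and 20 ug was labelled and put on 1 array. The reference in the other channel of every array was whole liver RNA of C57BL/6J males of the same age, mixed from 9 mice, with a spike-in RNA listed for this channel only. The deposited log ratios do not state their base or direction. They are read here as log2 of strain over reference, the likely form, and every fold rests on that reading. A panel mean is the mean over the 31 strains, given ± SE. In whole liver, fewer cells of a type and less RNA per cell cannot be told apart.

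Oxidative phosphorylation is the last stage of respiration in the inner mitochondrial membrane. Complexes I and II pass electrons from NADH and succinate to coenzyme Q, complex III passes them on to cytochrome c, and complex IV hands them to oxygen. Complexes I, III and IV pump protons across the membrane as they do so, and complex V lets the protons flow back and makes ATP. Liver is rich in mitochondria and spends this ATP on urea, glucose and bile acid synthesis. The members are encoded in the nucleus, and the subunits encoded in mitochondrial DNA carry other names and are not among them.

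Some features of the arrays touch the members. The arrays of strains 23, 28, 40 and 42 had a median correlation with the other arrays of 0.06 to 0.37, against at least 0.57 for the other 27. Probes with identifiers that divide by 8 had panel means around a median of -0.58, where the other probes had 0.04, and 13 members are such probes (Ndufb10, Ndufa8, Ndufa2, Ndufv2, Ndufc1, Ndufa5, Ndufaf5, Ndufaf6, Sdha, Cox7c, Cox7a2, Atp5l and Atp5k-ps1). They are called every 8th probes here. A finer place correction subtracts, on each array, the median of the probes with the same remainder after division of the identifier by 480. Its value is given beside a named gene where it changes the call, turns the sign or moves a called mean by more than 1.5 times. The hepatocyte marker list had 6 probes higher, 5 lower and 2 not past the threshold. On the array of strain 40 its probes lay on both sides of 0, from albumin, Alb, at -2.60 to Apoa1 at 0.705.

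More oxidative phosphorylation probes were higher than lower relative to the C57BL/6J reference. Of the 87 members, 50 were higher, 19 were lower and 18 did not pass the threshold (limma, adjusted p under 0.05 over all probes). In either direction 79.3% of the members passed, where 75.0% of all probes did. Among all probes tested, 37.4% were higher and 37.6% lower, against 57.5% and 21.8% of the members. The median panel mean was 0.16 for the members and 0.001 for all probes. With a test for a mean beyond 0.2, 17 members were higher and 12 lower, where the shares of all probes were 14.6% and 18.6%. Outside the every 8th places, 45 of 74 members were higher and 12 lower, where 41.4% and 31.4% of the probes tested there were. Among the 13 every 8th members, 5 were higher and 7 lower, where 6.40% and 84.1% of all every 8th probes were.

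**Figure D1:**
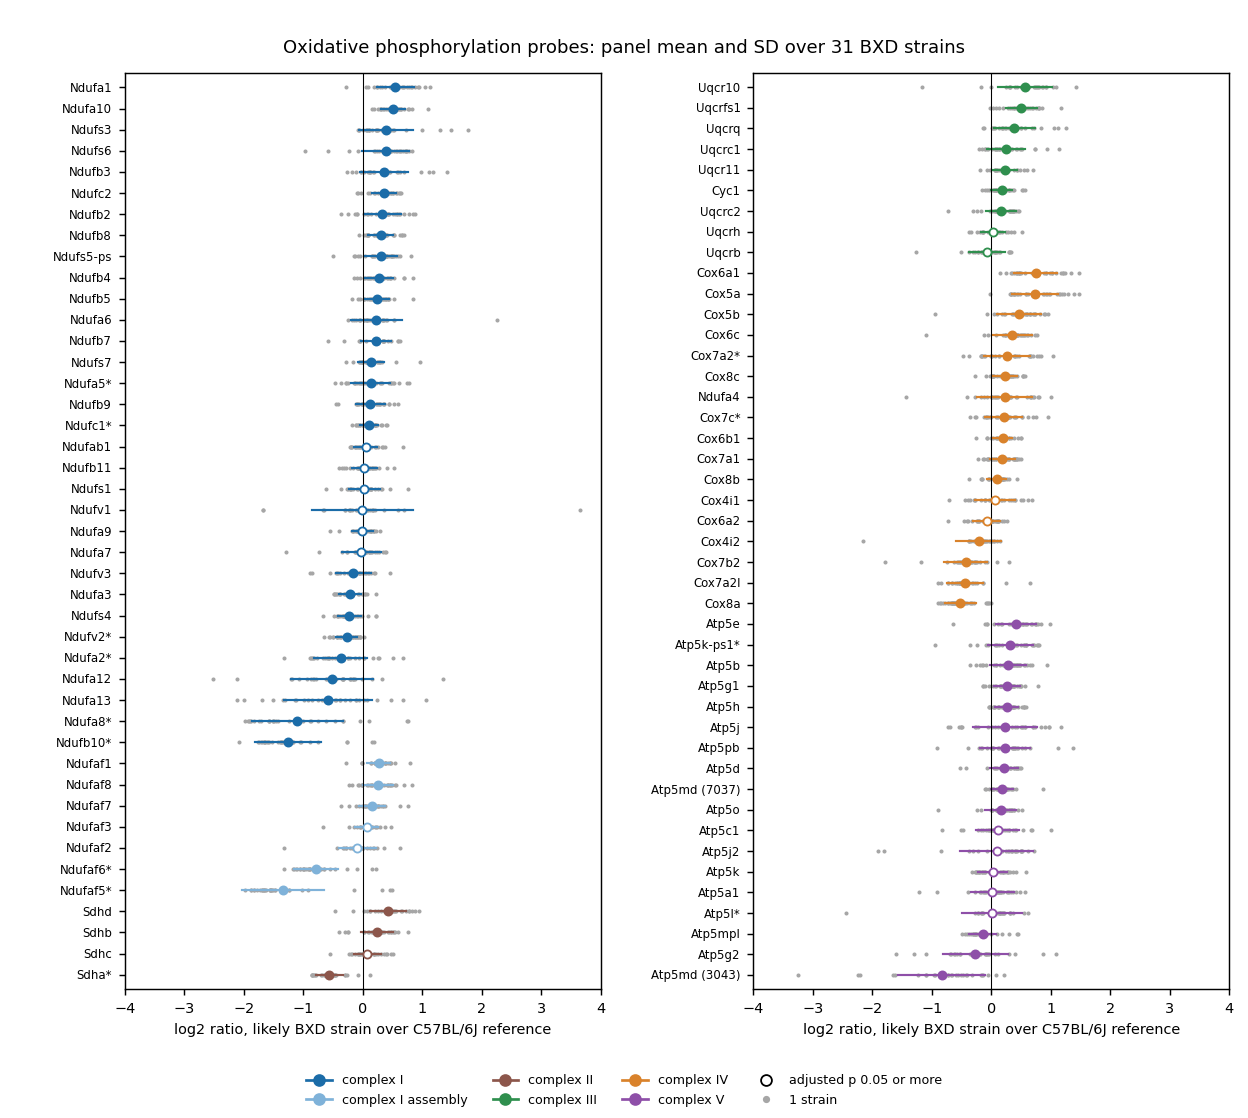
Panel mean (large point) and SD over 31 strains (line) of each of the 87 member probes, by complex, on a log2 axis of strain over reference, with each strain as a grey dot, an open point where the adjusted p was 0.05 or more, and an asterisk on every 8th probes. The points of complexes III, IV and V lie mostly right of 0, while Ndufaf5 (-1.34), Ndufb10 (-1.26) and Ndufa8 (-1.10) lie farthest left.

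Complex I, the NADH dehydrogenase and entry point of most electrons, had 17 probes higher, 9 lower and 6 that did not pass, with a median panel mean of 0.11. Ndufa1, a small subunit of the membrane arm, ranged from -0.28 through a median of 0.54 to 1.13. It lay above 0 in 30 of 31 strains, with strain 40 the exception and strain 18 the highest. Its panel mean was 0.55 ± 0.06, a 1.46-fold difference (limma adjusted p = 5.9e-11). Ndufa10, an accessory subunit of the membrane arm, ran from 0.15 through 0.51 to 1.09 and was above 0 in all 31 strains, highest in strain 9. Its mean was 0.51 ± 0.04 (limma adjusted p = 2e-14), and 0.24 after the finer place correction. Ndufs3, a core subunit of the arm that reaches into the matrix, ran from -0.09 through 0.26 to 1.76, with a mean of 0.39 ± 0.08 (limma adjusted p = 2.7e-05). Strains 12, 19 and 2 stood well above the other strains for this probe. Ndufs6, which belongs to the same arm, ran from -0.97 in strain 40 through 0.46 to 0.83, with a mean of 0.38 ± 0.07, and 0.20 after the finer place correction.

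The lowest complex I probes were also among the most variable. Ndufb10, a membrane arm subunit on an every 8th probe, ran from -2.08 through -1.38 to 0.18, with a mean of -1.26 ± 0.10 (limma adjusted p = 5e-14). Only strains 23 and 40, whose arrays stood apart, were above 0. After the finer place correction Ndufb10 had -1.06 and still passed. Ndufa8, also an every 8th probe, ran from -1.98 through -1.43 to 0.75 with a mean of -1.10 ± 0.14, and was above 0 only in strains 23, 28 and 40. After the finer place correction its mean was 0.12 and did not pass (limma adjusted p = 0.20), so its sign turned with the processing. Ndufa2 and Ndufv2, every 8th probes chosen after their values were seen, turned too, with means of -0.37 and -0.27 as deposited, and 0.35 and 0.15 after that correction.

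A pair of low complex I probes lay outside the every 8th places. Ndufa13, also known as GRIM-19 and needed for assembly of the complex, ran from -2.11 in strain 9 through -0.60 to 1.06 in strain 28. Its panel mean was -0.59 ± 0.13 (limma adjusted p = 7.6e-05), it was above 0 in 6 strains, and its strains formed a continuous spread. Ndufa12, an accessory subunit of the matrix arm, ran from -2.52 in strain 40 through -0.34 to 1.34 in strain 28. The mean of Ndufa12 was -0.52 ± 0.12 (limma adjusted p = 0.00015), and strains 40, 23 and 28, all with arrays that stood apart, gave its extremes. Ndufv1, the core subunit that binds NADH, had a panel mean of -0.01 ± 0.15 and did not pass (limma adjusted p = 0.96), nor after the finer place correction (0.02). It had the largest SD of all members, 0.84, through 3.65 in strain 34, the highest value that any array holds, and through -1.68 in both strain 23 and strain 40. Without those and strain 34 it stayed between -0.68 and 0.69.

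The Ndufaf genes encode factors that help assemble complex I and then leave it. Of the 7 probes, 3 were higher, 2 lower and 2 did not pass, with a median mean of 0.07. Ndufaf5, which modifies a subunit of the matrix arm during assembly, had the lowest panel mean of all members in the values as deposited. It ran from -1.98 through -1.56 to 0.49, with a mean of -1.34 ± 0.12 (limma adjusted p = 1.5e-12), and lay above 0 only in strains 23, 40 and 42. Ndufaf6, another assembly factor, ran from -1.32 through -0.89 to 0.22, with a mean of -0.78 ± 0.07 (limma adjusted p = 3.8e-13). Both are every 8th probes, and after the finer place correction they had -0.12 and -0.24 and still passed. The higher probes were Ndufaf1 (0.27 ± 0.03, and 0.15 after the finer place correction), Ndufaf8 (0.25 ± 0.05) and Ndufaf7 (0.16 ± 0.04). Ndufaf7, which methylates a core subunit, had -0.003 after the finer place correction and did not pass. Ndufaf2, an assembly factor that stays on until a late intermediate, had -0.10 ± 0.06 and did not pass (limma adjusted p = 0.11), and -0.14 after that correction, which did.

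Complex II, succinate dehydrogenase, links respiration to the tricarboxylic acid cycle, and its 4 subunits did not share a direction. Sdhd, a membrane anchor, ran from -0.46 in strain 8 through 0.43 to 0.95 in strain 24, with a mean of 0.42 ± 0.06 (limma adjusted p = 1.3e-08), and 0.22 after the finer place correction. It was above 0 in 29 of 31 strains. Sdhb, the iron-sulfur subunit, ran from -0.41 through 0.28 to 0.76, with a mean of 0.23 ± 0.05 (limma adjusted p = 4.6e-05). Sdhc, the other anchor, ran from -0.55 through 0.06 to 0.51 and did not pass (0.08 ± 0.04, limma adjusted p = 0.09), although it did without the 4 arrays that stood apart (0.11). Sdha, the flavin-bearing subunit that oxidises succinate, ran from -0.86 through -0.60 to 0.11, with a mean of -0.56 ± 0.04 (limma adjusted p = 2e-14), and only strain 23 was above 0. It is an every 8th probe, and its mean was 0.01 after the correction by remainder of 8, which did not pass, and -0.22 after the finer one, which did.

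Complex III, the cytochrome bc1 complex, had 7 of 9 probes higher and 2 that did not pass, with a median mean of 0.23. After the finer place correction 5 were higher and 2 lower. Uqcr10, a small subunit, ran from -1.16 in strain 40 through 0.59 to 1.42 in strain 14. Its mean was 0.56 ± 0.08 (limma adjusted p = 5.5e-08), and strain 40 lay far below the next lowest value, -0.17. Uqcrfs1, the Rieske iron-sulfur protein that takes electrons from coenzyme Q, ran from -0.01 through 0.53 to 1.17, with a mean of 0.50 ± 0.05 (limma adjusted p = 9.5e-12). Strain 40 was the only one below 0. Uqcrq, a small subunit, ran from -0.14 through 0.35 to 1.25 with a mean of 0.39 ± 0.06, and Uqcrc1, a core protein, from -0.21 through 0.18 to 1.14 with a mean of 0.25 ± 0.06. Cyc1, cytochrome c1, which passes electrons to cytochrome c, ran from -0.15 through 0.14 to 0.57, with a mean of 0.17 ± 0.03 (limma adjusted p = 2.7e-05). After the finer place correction Cyc1 had -0.01 and Uqcrc1 0.10, and neither passed.

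Complex IV, cytochrome c oxidase, held the 2 highest panel means of the members. Of 17 probes, 11 were higher, 4 lower and 2 did not pass, and the median mean was 0.19. Cox6a1, a regulatory subunit that is the common form outside muscle, ran from 0.14 in strain 40 through 0.71 to 1.48 in strain 29. It was above 0 in all 31 strains, with a mean of 0.75 ± 0.06 or 1.68-fold (limma adjusted p = 7.2e-13). Cox5a, which lies on the matrix side and binds a thyroid hormone metabolite, ran from -0.02 through 0.68 to 1.47. Its mean was 0.74 ± 0.07 or 1.67-fold (limma adjusted p = 4.3e-12), and all strains but strain 40 were above 0. Cox5b, a zinc-binding matrix subunit, ran from -0.95 through 0.53 to 0.96 with a mean of 0.46 ± 0.07, and Cox6c from -1.09 through 0.42 to 0.77 with a mean of 0.35 ± 0.06. For both, strain 40 was lowest by a wide margin, the next values being -0.08 and -0.12.

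The lower probes of complex IV included a subunit and a factor of supercomplexes. Cox8a, the form of subunit VIII found in liver, ran from -0.89 through -0.62 to -0.01 and was below 0 in all 31 strains, the only member to be so. Its mean was -0.52 ± 0.05 (limma adjusted p = 3.3e-12). Of all 21765 probes tested, 976 were below 0 in all 31 strains and 784 above 0 in all, against 1 and 2 of the 87 members. One sign in every strain is thus not particular to the members. Cox7a2l, also called SCAF1, which joins complexes III and IV into supercomplexes, ran from -0.89 in strain 5 through -0.52 to 0.65 in strain 42. It had a mean of -0.44 ± 0.05 (limma adjusted p = 3.3e-09), was below 0 in 29 of 31 strains, and had -0.28 after the finer place correction.

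Several complex IV subunits exist as a form common in liver and a form known from muscle, lung or testis. Cox4i1, the common form of subunit IV, did not pass (0.06 ± 0.06), but did after the finer place correction (0.22) and without the 4 arrays that stood apart (0.12). Cox4i2, the lung form, had -0.21 ± 0.07 (limma adjusted p = 0.0043), with -2.15 in strain 28 against a next lowest value of -0.37. The muscle forms were Cox6a2 (-0.08 ± 0.04, limma adjusted p = 0.089, not passed, and 0.08 and not passed after the finer place correction), Cox7a1 (0.19 ± 0.04, higher, and 0.28 after that correction) and Cox8b (0.09 ± 0.03, higher, but 0.02 and not passed after the finer place correction). Their counterparts were Cox6a1, described above, and Cox7a2 (0.26 ± 0.07, higher, an every 8th probe, and 0.99 after the finer place correction), with Cox8a lower. The testis forms were Cox7b2 (-0.43 ± 0.06, lower, and -1.79 in strain 29) and Cox8c (0.23 ± 0.04, higher). Cox6b1, the form of subunit VIb outside testis, was higher at 0.19 ± 0.03. Across strains, r was 0.12 for Cox6a2 and Cox6a1, 0.04 for Cox8a and Cox8b, and 0.19 for Cox4i2 and Cox4i1. Cox7a1 and Cox7a2 had -0.24, and 0.06 after the finer place correction. Cox8c had -0.27 with Cox8a and -0.32 with Cox8b. Without the 4 arrays that stood apart, Cox4i2 and Cox4i1 had -0.12, and Cox8c had -0.36 with Cox8a and -0.42 with Cox8b. Of the skeletal muscle markers, 2 were higher, 3 lower and 8 did not pass, and of the testis markers 3, 5 and 5. A ratio gives no level, so whether the muscle or testis forms were expressed at all in these livers is unknown.

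Complex V, the ATP synthase, had 10 of 18 probes higher, 3 lower and 5 that did not pass, with a median mean of 0.17. Atp5e, the epsilon subunit of the stalk, ran from -0.63 in strain 28 through 0.48 to 0.98 in strain 33, with a mean of 0.41 ± 0.06 (limma adjusted p = 1.3e-07), and 0.27 after the finer place correction. Atp5k-ps1, the next identifier on the array and an every 8th probe, ran from -0.94 in strain 28 through 0.38 to 0.81. Its mean was 0.32 ± 0.07, and 0.74 after the finer place correction. Atp5b, the catalytic beta subunit, ran from -0.35 through 0.37 to 0.93, with a mean of 0.29 ± 0.05 (limma adjusted p = 1.3e-05), and Atp5g1, a gene for the rotating c subunit, had 0.26 ± 0.04. Atp5d, the delta subunit of the stalk, had 0.22 ± 0.04 and was below 0 only in strains 23, 40 and 42. Atp5g2, which like Atp5g1 encodes the c subunit, was lower at -0.27 ± 0.10 (limma adjusted p = 0.0095), and ran from -1.61 in strain 5 to 1.09 in strain 8. Atp5mpl, a small membrane subunit, was also lower (-0.15 ± 0.04).

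Some complex V probes varied widely between strains. Atp5md, a small subunit that helps dimers of the enzyme form, was measured by 2 probes that disagreed. The 1 with identifier 3043 ran from -3.24 in strain 28 through -0.72 to 0.22, with a mean of -0.83 ± 0.13. The other, with identifier 7037, ran from -0.10 through 0.17 to 0.88, with a mean of 0.18 ± 0.03, and 0.11 after the finer place correction. Both passed, in opposite directions, and their correlation across strains was -0.28, so no direction is given for the gene. Atp5l, subunit g and an every 8th probe, had -2.45 in strain 28 and otherwise stayed between -0.27 and 0.62. It did not pass (0.02 ± 0.09, limma adjusted p = 0.87), but did after the finer place correction (0.43). Atp5j2, subunit f, had 0.09 ± 0.11 and did not pass, with -1.90 in strain 23 and -1.81 in strain 40 against a median of 0.29. Without the 4 arrays that stood apart it had 0.27 and passed. Atp5j, coupling factor 6 of the stator, ran from -0.72 in strain 24 through 0.35 to 1.16 in strain 5. Its mean was 0.23 ± 0.10 (limma adjusted p = 0.023), and it did not pass after the correction by remainder of 8 (0.17). Its SD was 0.54 both over 31 and over 27 strains. Strains 24, 23, 21, 31, 14 and 12 were its lowest and strains 5, 20, 18 and 39 its highest.

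**Figure D2:**
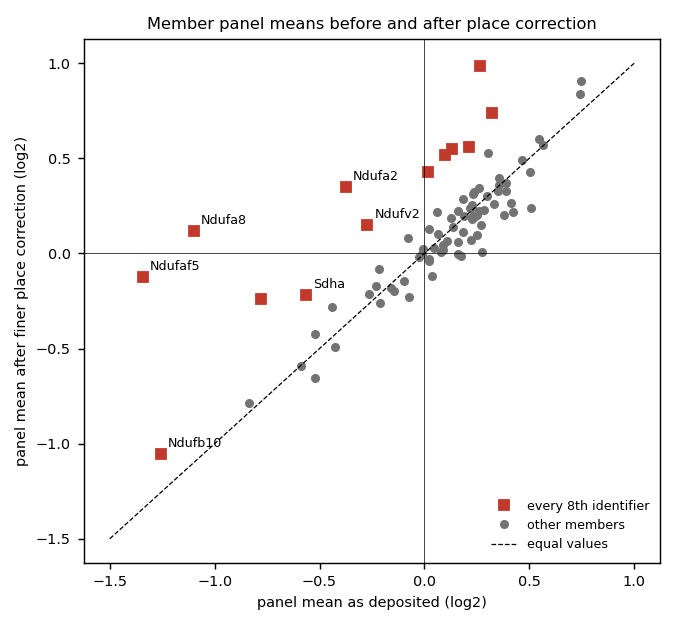
Panel mean of each member as deposited (horizontal, log2) against its value after the finer place correction (vertical, log2), with every 8th probes as red squares and the dashed line marking equal values. All 13 every 8th probes lie above the line, Ndufa8 moving to 0.12 and Ndufb10 to -1.06. Other members lie on both sides of it, and some of them move too, as Ndufb4 from 0.27 to 0.006 and Ndufb8 from 0.30 to 0.53.

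After the finer place correction 49 members were higher and 19 lower, where 36.0% and 36.2% of all probes were. Without strains 23, 28, 40 and 42, 55 were higher and 19 lower, where 39.9% and 38.2% of all probes were. Probes for mitochondrial ribosomal proteins, which make the subunits encoded in the mitochondrion, had 35 of 72 higher and 16 lower, with a median mean of 0.09. Probes for cytosolic ribosomal proteins had 44 of 79 higher and 12 lower, with a median mean of 0.17. The difference between these lists and the members was not tested.

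Genes that build or feed the complexes went both ways. Among 19 complex IV assembly probes, 14 were higher, 3 lower and 2 did not pass, led by Cox14 (0.76 ± 0.07), Coa5 (0.57 ± 0.05) and Cox19 (0.45 ± 0.04), which had 0.49, 0.34 and 0.26 after the finer place correction. Cox14 and Coa5 are assembly factors and Cox19 a small protein of the intermembrane space needed for the complex. Among 10 probes of complex I assembly factors outside the Ndufaf names, 3 were higher and 5 lower. Tmem70 led them at -0.79 ± 0.17, an every 8th probe at 0.05 after the finer place correction and not passed there. It was followed by Tmem126b (0.45 ± 0.06) and Timmdc1 (-0.32 ± 0.04), both membrane factors of early assembly. Of 4 complex II assembly probes 1 was higher and 2 lower, both of these on every 8th probes. Sdhaf1, needed for the iron-sulfur subunit, had -0.95 ± 0.09, and -0.04 after the finer place correction, which did not pass. Sdhaf4, which acts on the flavin-bearing subunit, had -0.35 ± 0.10 and turned to 0.54. Sdhaf3 was higher at 0.09 ± 0.03, but not after that correction (0.05). Of 4 complex III assembly probes 2 were higher and 2 did not pass, the higher ones being Bcs1l, which inserts the Rieske protein, at 0.43 ± 0.05 (0.25 after that correction) and Uqcc1 at 0.22 ± 0.04. Of 3 complex V assembly probes 2 were lower and 1 did not pass, the lower ones being Tmem70 as above and Fmc1 at -0.23 ± 0.05.

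Electron carriers that feed coenzyme Q and cytochrome c had 6 of 10 probes higher and 3 lower. Etfb, a subunit of the flavoprotein that takes electrons from fatty acid oxidation, was highest at 0.65 ± 0.07, above 0 in 30 of 31 strains. Gpd2, the mitochondrial glycerol phosphate dehydrogenase, stood at -0.46 ± 0.05, and Prodh, proline dehydrogenase, at 0.45 ± 0.05. Of 8 coenzyme Q synthesis probes, 4 were higher and 2 lower, with the methyltransferase Coq5 at 0.91 ± 0.07 and above 0 in all 31 strains. Coq9, an every 8th probe, had -0.43 ± 0.04 (-0.03 and not passed after the finer place correction), and Pdss2, which makes the side chain, -0.38 ± 0.07. Of 13 probes for regulators of mitochondrial biogenesis, 3 were higher and 7 lower. Nrf1, a transcription factor of nuclear respiratory genes, had -0.85 ± 0.08 on an every 8th probe and -0.13 after the finer place correction, which passed. The nuclear receptor Esrra had -0.62 ± 0.06, and Tfb2m, a mitochondrial transcription factor, 0.47 ± 0.07. Of 17 tricarboxylic acid cycle probes, 6 were higher and 7 lower, with Idh3a at -1.11 ± 0.10 on an every 8th probe (0.20 and higher after that correction), Mdh2 at 0.68 ± 0.05 and Dlst at -0.63 ± 0.04 on an every 8th probe (-0.21 after it). Of 8 probes for carriers and uncoupling proteins, 3 were higher and 3 lower, with the outer membrane channel Vdac1 at -0.62 ± 0.05 on an every 8th probe (0.04, not passed, after that correction), Ucp3 at -0.30 ± 0.04 and the phosphate carrier Slc25a3 at -0.29 ± 0.06 on an every 8th probe (0.13, not passed).

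Across strains, members co-varied weakly as a set. All pairs share the reference RNA, the array of each strain and the single distribution of values common to the arrays, and correlations are given as descriptions over 31 strains. The mean r over the 3741 pairs of members was 0.048, where that over all pairs of tested probes was 0.0007. Of member pairs, 6.04% had r of 0.5 or more, as had 3.47% of all pairs. Pairs at 0.7 or more were 37 among members (0.989%, against 0.411% of all pairs). Without the 4 arrays that stood apart, mean r was 0.035 and 13 member pairs reached 0.7 (0.348%, against 0.088% of all pairs). Leaving out strain 40 alone gave a mean r of 0.033, and leaving out any other strain gave 0.046 to 0.051. The members' median SD over strains was 0.30, where that of all probes was 0.24.

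**Figure D3:**
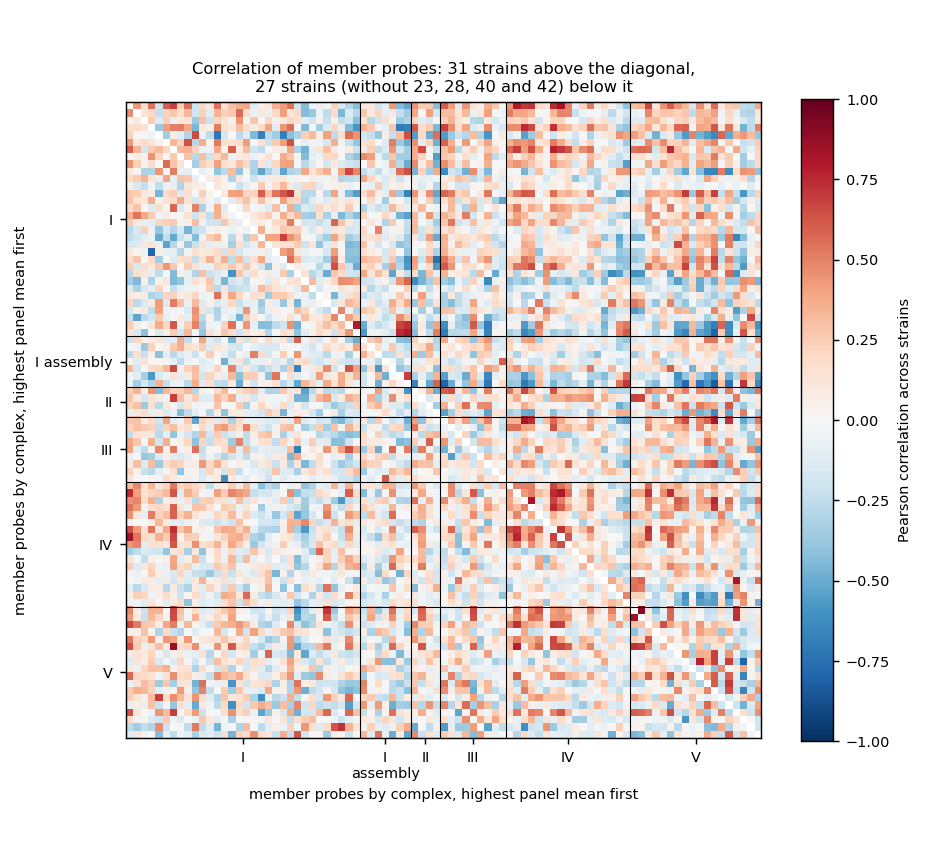
Pearson correlation across strains for every pair of the 87 member probes, ordered by complex, over 31 strains above the diagonal and over 27 strains below it, with red for positive and blue for negative r. Some strong colours above the diagonal fade below it, as for Ndufaf5 and Ndufb10 (0.80 over 31 strains, -0.07 over 27), and others stay, as for Ndufa1 and Cox7c (0.83 and 0.83) and for Cox5a and Ndufa1 (0.80 and 0.75).

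Mean r within complex IV was 0.126, within complex V 0.070, within complex I 0.048 and within complex III 0.032. With the finer place correction over 27 strains, complex V (0.063) lay above complex IV (0.049). The Ndufaf factors had -0.060 and complex II -0.087. Between complexes IV and V the median r of 306 pairs was 0.108, close to the 0.117 within complex IV. Some partners of the same enzyme, chosen after earlier results were known, were looked up. The catalytic partners Atp5a1 and Atp5b had r = 0.18 (-0.07 over 27 strains), the core proteins Uqcrc1 and Uqcrc2 0.31 (0.13) and Ndufv1 and Ndufv2 -0.02 (0.26). Ndufv1 and Ndufs1, both core subunits of the matrix arm, had 0.12, or -0.09 over 27 strains and 0.55 without the 2 strains farthest from the median of Ndufv1. Sdha and Sdhb had 0.05 (-0.10), and the anchors Sdhc and Sdhd 0.34 (0.18). The mean r for cytosolic ribosomal proteins was 0.224 and for mitochondrial ribosomal proteins 0.011.

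The members closest to the mean of all others were Ndufa4 (r = 0.86), Ndufa1 (0.85), Cox6c (0.83) and Ndufb2 (0.81). Over 27 strains these were 0.77, 0.77, 0.63 and 0.83. The 4 with the lowest r were Ndufaf5 (-0.62), Sdha (-0.53), Ndufb10 (-0.50) and Ndufa3 (-0.42). Over 27 strains they had -0.17, -0.21, 0.12 and -0.43, so that Ndufa3, an accessory subunit of complex I, was the one of these 4 that kept its value. Ndufa3 was lower in the panel mean (-0.22 ± 0.03), with -0.08 after the finer place correction, which passed. The other 3 are every 8th probes, each with its highest value in strain 23 or 40.

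Of the 10 pairs with the highest r over 31 strains, 4 kept r of at least 0.7 over 27 strains. Atp5e and Atp5k-ps1 led with r = 0.90 (rho 0.87, and 0.84 over 27 strains), and their identifiers are neighbours on the array. Ndufa1 and Cox7c followed with r = 0.83 (rho 0.88, and 0.83 over 27 strains), with identifiers 2 apart. Over all probes, neighbouring identifiers had a mean r of 0.10 and those 2 apart 0.08, so part of a near pair's r can be shared by place on the array, which was not tested for these pairs. The other 4 member pairs with identifiers 8 or less apart had r between -0.19 and 0.51. Cox5a had r = 0.80 with both Ndufa1 and Cox7c, and 0.75 and 0.76 over 27 strains, with identifiers 959 and 961 apart. These distances lie next to a multiple of 480, the period of the finer place correction. Over all probes, identifiers 480 apart had a mean r of 0.07, so place can have a part in these pairs too, which was not tested. After that correction the 2 pairs had 0.78 and 0.77, and 0.69 and 0.68 over 27 strains.

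Other leading pairs weakened without the arrays that stood apart, some of them only in part. Atp5l and Cox4i2 had r = 0.82 over 31 strains, rho -0.03 and r = -0.15 over 27, both probes being lowest in strain 28. Ndufaf5 and Ndufb10 had 0.80 and -0.07. Cox5b had 0.82 with Cox6c (0.49 over 27 strains) and 0.81 with Uqcr10 (0.47), and all 3 were lowest in strain 40. Uqcr10 and Atp5j2 had 0.81 (0.46), and Ndufa8 and Ndufb10 0.79 (0.44). At the other end, Ndufaf5 had -0.83 with Atp5j2, -0.80 with Uqcr10 and -0.77 with Atp5d, and over 27 strains -0.41, -0.47 and -0.35. Atp5j2 and Ndufb10 had -0.80 (-0.41), and Atp5mpl and Atp5d -0.80 (-0.58).

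Over all pairs of members, 10 had r of at least 0.7 both over 31 and over 27 strains. Beside Atp5e with Atp5k-ps1, they joined 7 genes of complexes I, IV and V: Cox5a, Ndufa1, Cox7c, Ndufa4, Ndufb2, Atp5j and Atp5b. Cox5a was in 5 of these pairs, with Ndufa1, Cox7c, Ndufa4 (0.75), Atp5j (0.74) and Atp5b (0.73). Ndufb2, an accessory subunit of complex I, had 0.77 with Ndufa4 and 0.75 with Atp5j, and 0.73 and 0.85 over 27 strains. Atp5b had 0.72 with Ndufa4. With the finer place correction as well as over 27 strains, these 10 pairs had r between 0.62 and 0.83. No member of complex II or III was among them. The share of all probe pairs that reached 0.7 over both sets of strains was not computed. Taken singly, 0.411% of all pairs reached it over 31 strains and 0.088% over 27.

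**Figure D4:**
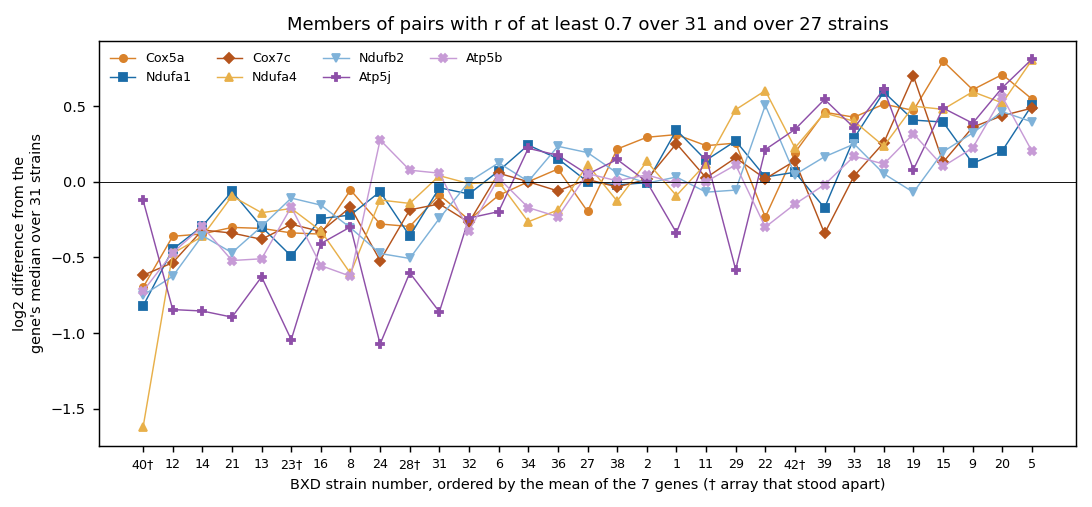
Log2 difference of 7 members from their own median over 31 strains (vertical), with strains ordered by the mean of the 7 (horizontal, † for arrays that stood apart). Strains 40, 12, 14 and 21 lie at the low end and 5, 20, 9 and 15 at the high end, and in strain 40 Ndufa4 (-1.42 on the log2 ratio scale) is the lowest point while Atp5j stays near its median.

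The strains at the ends of each gene are given as a description, since the genes were picked for their r across these strains, and 9 of the 21 pairs among them are the ones named. Cox5a was lowest in strain 40 (-0.02) and strain 12 (0.32) and highest in strain 15 (1.47) and strain 20 (1.39). Ndufa4, which ran from -1.42 through 0.20 to 1.00 (mean 0.23 ± 0.08), was lowest in strain 40 and highest in strain 5. Ndufb2 ran from -0.37 in strain 40 through 0.38 to 0.88 in strain 22 (mean 0.33 ± 0.06). Cox7c, a small membrane subunit, ran from -0.36 in strain 40 through 0.26 to 0.96 in strain 19 (mean 0.21 ± 0.06 on an every 8th probe, and 0.56 after the finer place correction). Atp5j departed from the others in strain 40, at 0.23.

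The promoters of these 7 genes are shown because the genes moved together across strains. Each sequence holds the 250 bases before a gene's start, from RefSeq's annotation of GRCm38.p6, written 5′ to 3′ on the gene's strand. RefSeq windows were found for 68 of the 86 member genes. Capitals mark matches, on either strand, to 6 motifs, none of which contains another. The NRF1 motif, bound by nuclear respiratory factor 1, was searched as CGCANGCGC. For the ETS family, which includes the GABP factor of respiratory genes, the letters were CCGGAAG. The motif of the initiator factor YY1 was searched as ATGGCGG. Estrogen-related receptors (ERR) bind a site searched as AAGGTCA. The CCAAT box, bound by the factor NF-Y, was searched by those letters. The GC box, bound by Sp1 and related factors, was searched as GGGCGG. The Cox5a window is chr9:57520982-57521231 (plus strand), that of Ndufa1 chrX:37191239-37191488 (minus), of Cox7c chr13:86046796-86047045 (minus), of Ndufa4 chr6:11907451-11907700 (minus), of Ndufb2 chr6:39592315-39592564 (plus) and of Atp5b chr10:128083057-128083306 (plus). Atp5j has 2 annotated starts, with windows at chr16:84835626-84835875 and chr16:84834977-84835226 (both minus).
Cox5a: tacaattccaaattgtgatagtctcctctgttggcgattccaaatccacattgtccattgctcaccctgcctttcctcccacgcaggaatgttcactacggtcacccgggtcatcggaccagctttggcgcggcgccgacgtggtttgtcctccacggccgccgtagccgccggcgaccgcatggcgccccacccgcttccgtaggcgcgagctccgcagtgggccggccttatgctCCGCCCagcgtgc
Ndufa1: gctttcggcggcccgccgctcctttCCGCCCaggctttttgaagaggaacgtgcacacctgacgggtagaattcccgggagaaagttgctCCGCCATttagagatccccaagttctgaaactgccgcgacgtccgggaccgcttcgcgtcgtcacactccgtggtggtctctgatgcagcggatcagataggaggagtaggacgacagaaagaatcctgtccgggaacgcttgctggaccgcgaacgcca
Cox7c: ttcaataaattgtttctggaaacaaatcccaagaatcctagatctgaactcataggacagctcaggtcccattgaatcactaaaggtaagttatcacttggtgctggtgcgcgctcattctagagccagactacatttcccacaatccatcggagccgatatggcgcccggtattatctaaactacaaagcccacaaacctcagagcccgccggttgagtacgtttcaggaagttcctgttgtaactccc
Ndufa4: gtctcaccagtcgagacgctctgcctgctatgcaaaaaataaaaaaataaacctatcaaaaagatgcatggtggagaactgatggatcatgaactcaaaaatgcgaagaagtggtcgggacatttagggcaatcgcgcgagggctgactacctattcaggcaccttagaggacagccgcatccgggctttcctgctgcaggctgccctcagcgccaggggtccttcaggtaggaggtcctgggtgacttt
Ndufb2: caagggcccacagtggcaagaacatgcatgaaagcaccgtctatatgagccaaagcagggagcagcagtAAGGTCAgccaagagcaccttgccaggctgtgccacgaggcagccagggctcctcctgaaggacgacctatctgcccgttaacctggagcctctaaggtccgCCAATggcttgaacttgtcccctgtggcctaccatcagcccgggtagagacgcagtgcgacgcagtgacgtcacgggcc
Atp5j, first start: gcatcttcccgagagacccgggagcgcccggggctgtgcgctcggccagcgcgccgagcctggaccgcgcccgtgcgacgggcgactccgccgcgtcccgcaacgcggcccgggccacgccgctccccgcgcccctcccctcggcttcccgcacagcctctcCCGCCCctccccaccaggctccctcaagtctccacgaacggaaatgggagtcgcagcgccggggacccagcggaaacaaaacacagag
Atp5j, second start: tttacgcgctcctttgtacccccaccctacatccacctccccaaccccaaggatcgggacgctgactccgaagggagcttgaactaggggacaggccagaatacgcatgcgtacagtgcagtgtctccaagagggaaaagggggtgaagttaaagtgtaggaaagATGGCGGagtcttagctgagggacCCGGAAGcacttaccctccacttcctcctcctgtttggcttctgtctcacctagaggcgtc
Atp5b: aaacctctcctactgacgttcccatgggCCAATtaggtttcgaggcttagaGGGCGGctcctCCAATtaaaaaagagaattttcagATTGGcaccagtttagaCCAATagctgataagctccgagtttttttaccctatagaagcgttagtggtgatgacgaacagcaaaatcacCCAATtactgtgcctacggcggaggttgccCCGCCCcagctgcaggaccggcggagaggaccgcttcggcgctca

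The windows of the 7 genes shared no single match. Those of Cox7c and Ndufa4 held none of the 6 motifs, Cox5a held 1 GC box, Ndufa1 a GC box and a YY1 match, and Ndufb2 an ERR match and a CCAAT box. Atp5b held 5 CCAAT boxes and 2 GC boxes. The first Atp5j window held a GC box and the second an ETS and a YY1 match. Over all 73 windows of member genes, 21.9% held the NRF1 motif, against 5.19% of the 32851 windows in the table. The ETS motif was in 17.8%, against 6.91%, and the YY1 motif in 8.22%, against 2.21%. The ERR motif was in 4.11%, against 4.08%, the CCAAT box in 42.5%, against 33.8%, and the GC box in 38.4%, against 32.7%. The median GC content was 57.6% in the member windows and 52.4% in all. A match is a run of letters and not a shown binding site, and the lack of one says only that these letters are not in this window.

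Each strain was scored by the mean of its members, each taken from its own median over strains. The score over all members ran from -0.28 in strain 40 to 0.09 in strain 20. The next lowest were strains 14 (-0.12), 23 (-0.11), 12 (-0.09) and 8 (-0.08), and the next highest 33 (0.09) and 5 (0.08). In strain 40, 60 of 87 members were below their median, where 49.31% of all probes were, and 23 members were at their lowest of all strains. That is 26.4% of members, where 13.8% of all probes were lowest there. Strain 40 also had the lowest array agreement, 0.06, and low scores of the Kupffer cell markers (-0.51) and hepatocyte markers (-0.60), whose part in its score was not tested. Its Kupffer cell marker probes lay on both sides of 0, from Marco at -1.92 to C1qb at 0.85. Strain 23, with a member score of -0.11, had -0.42 for the Kupffer cell markers and -0.82 for the hepatocyte markers. Strain 14, with an array agreement of 0.75, had 64 of 87 members below their median, the most of any strain. Of all probes, 47.55% were below their median in strain 14.

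**Figure D5:**
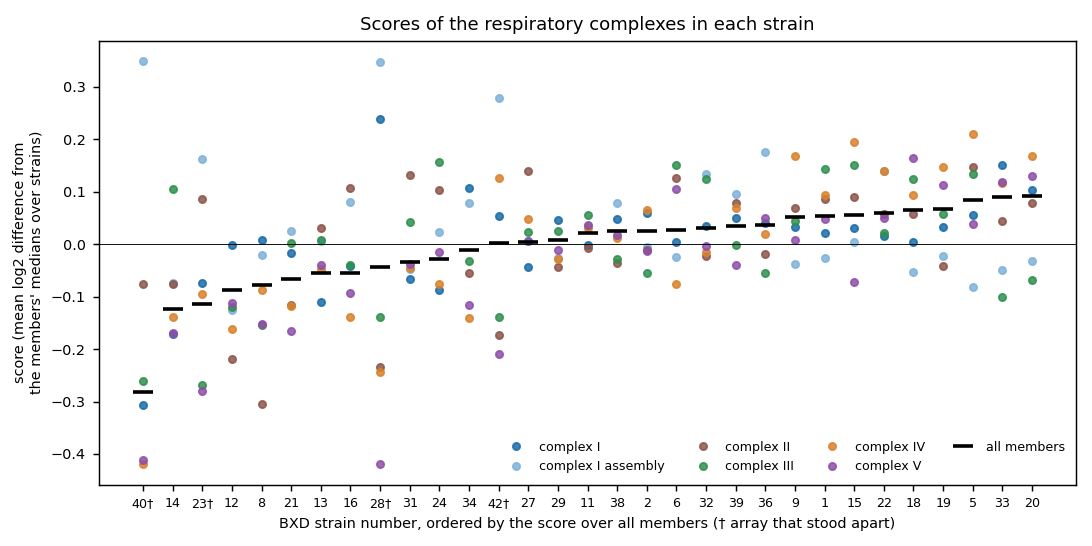
Score of each complex (coloured points) and of all members (black bars) in each of 31 strains, on a log2 scale, with strains ordered by the score over all members and † on arrays that stood apart. Strain 40 lies lowest at -0.28, with complexes IV (-0.42) and V (-0.41) low and the Ndufaf score at 0.35, which 2 every 8th probes carry.

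The complexes did not all move together between strains. The scores of complexes IV and V had r = 0.73 over 31 strains (rho 0.67, 0.55 without the 2 farthest strains, and 0.66 over 27). Complexes I and IV had 0.45 (0.48 over 27), complexes II and V 0.54 (0.51) and complexes II and III 0.50 (0.56). Complexes III and V had 0.62, but 0.23 over 27 strains. Complexes I and III had 0.05, and -0.32 over 27. The Ndufaf factors and complex V had -0.65, but -0.01 over 27 strains. In strains 23, 28, 40 and 42 the every 8th probes of Ndufaf5 and Ndufaf6 averaged 1.16 to 1.57 above their medians, and the other 5 Ndufaf probes -0.40 to -0.01. Without the every 8th probes, a choice made after seeing the data, the Ndufaf and complex V scores had r = 0.38 (0.21 over 27 strains). The complex V score had an SD of 0.14, from -0.42 in strain 28 to 0.16 in strain 18, and that of complex IV an SD of 0.14, from -0.42 in strain 40 to 0.21 in strain 5. Complex II was lowest in strain 8 (-0.31) and complex III in strain 23 (-0.27).

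The score over all members went with those of both ribosomal lists. Its r was 0.82 with mitochondrial ribosomal proteins (rho 0.75, and r = 0.76 over 27 strains) and 0.74 with cytosolic ribosomal proteins (rho 0.77, and r = 0.79 over 27). Strain 15 was highest for cytosolic ribosomal proteins (0.38) and strain 12 lowest (-0.24). Of cytosolic ribosomal probes, 48.1% had r of at least 0.5 with the member score, where 12.5% of mitochondrial ribosomal probes and 5.16% of all probes did. Over 27 strains these shares were 46.8%, 8.33% and 2.95%. The score of 4 erythroid marker probes had r = 0.60 with it (0.62 over 27 strains), and its part in the members' score was not tested. Among themselves these 4 probes had a mean r of -0.03, and in the panel mean 2 were higher, 1 lower and 1 not passed. With the member score, Kupffer cell markers had 0.61 and 0.23, hepatocyte markers 0.47 and -0.0001, and the agreement of an array with the others 0.61 and 0.0003. The assembly factors of complex IV had 0.45 and 0.09.

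The non-member probes most alike in pattern over 31 strains, by r with the member score, were Pfkp (0.85), Pmel (0.84), Eci1 (0.82), Akr1a1 (0.82), Slc1a5 (0.81), Slc37a2 (0.81), Slc6a12 (0.81), Apoe (0.80), Sdc4 (0.79) and Rps27l (0.78). Over 27 strains all 10 had r between 0.57 and 0.76. The 10 highest over 27 strains were Naa50 (0.85), Rps14 (0.83), 1700110I07Rik (0.79), Rpl35a (0.77), Rpl27 (0.76), Higd1b (0.76), Pfkp (0.76), Ddt (0.76), Ferd3l (0.76) and Rpl10a (0.76), and Pfkp stood in both lists. Of these, 1700110I07Rik had -0.12 over 31 strains.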

How the data were processed

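Liver RNA of 31 BXD strains was hybridised against 1 common C57BL/6J reference RNA on 2-colour glass arrays without dye swaps. The authors deposited normalized log ratios, for which the submitters' processing notes name R 2.0.0 and limma. Log base, direction, background correction and normalization are unstated. The deposited values were taken as log2 ratios of strain to reference, the likely reading, since the strain RNA carried the red dye and limma forms the log2 of red over green. Sorted values differed between arrays by at most 0.000256, so all arrays share 1 distribution. Intensities were not used, so signal over background is unknown and the number of arrays limits precision.

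Of 23040 features, 1275 were empty and 21765 were tested. Annotation gave 1 gene for 16642 probes, several for 134 and none for 4989, and RefSeq (GRCm38.p6) held 15964 of the first by gene ID. Panel means were set against 0 with an intercept fit (limma 3.58.1, R 4.3.3, lmFit, eBayes, two-sided, Benjamini-Hochberg over all probes, threshold 0.05), tested on simulated data. This leaves out the spread of the reference, and any dye effect adds to the mean. The p-values test a panel mean against 0, set against the spread between the arrays of the strains. With 1 array of pooled mice per strain, this spread holds strain differences together with those of pools, labelling and arrays. These parts cannot be told apart, so an SD or an extreme value of a strain is not by itself a strain difference. Correlations are Pearson's r across strains. A strain score is the mean over members, each centred on its median.

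The members and lists were chosen with earlier results of these data known. Named members were, by group, up to 4 highest and 4 lowest panel means past the threshold and the 3 largest SDs. Added were all of complex II, Cyc1, the tissue isoforms of complex IV with their counterparts, Cox7a2l, both Atp5md probes, the extreme correlations with the other members and the extreme pairs. Up to 3 genes of each pathway list were taken by absolute mean. The alternatives were place corrections, leaving out every 8th probes, strains 23, 28, 40 and 42 or near identifiers, averaging probes of a gene, median centring, annotated symbols, a minimum change of 0.2, robust eBayes, rank correlation and other scores.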

Additional observations from a re-analysis of the deposited data

How the results depend on the processing

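No paired analysis was possible because the strains formed 1 group with a common reference. Background correction, normalization within arrays and a filter on dim probes could not be varied without intensities. The count of higher members was 17 and that of lower members 12 with a minimum change of 0.2, and the lower count was 12 without every 8th probes (31.4% of the probes then tested were lower). Mean r over all members was 0.0776 without every 8th probes and 0.0251 with the finer place correction over 27 strains. Leaving out single strains gave 0.0329 to 0.0509, and the largest shift from the main value, 0.0484, was taken as its spread. The correction by remainder of 8 (0.0612) and the finer one (0.055) stayed within that shift. Within complex I mean r was 0.0756 with the finer place correction, 0.0869 without every 8th probes, 0.0225 over 27 strains and 0.0193 with both. Within complex II it was 0.0389 with the correction by remainder of 8, 0.0858 without every 8th probes and -0.0538 over 27 strains, and for the Ndufaf factors 0.0320 without every 8th probes. Within complex III it was -0.0184 with the finer place correction, 0.0006 over 27 strains and -0.0295 with both, and within complex IV 0.0987 over 27 strains and 0.0485 with both, which is below complex V (0.0625). The median panel mean of complex III (0.23) lay above those of the other groups as deposited, but below complex V over 27 strains (0.2441, against 0.2313) and below complex II without every 8th probes (0.2350). The lowest strain score was -0.4185 without every 8th probes, -0.1875 as a median of members, -0.1873 with 1 weight per complex and -0.1309 over 27 strains, where strain 14 was lowest. Among members named by the rule that passed, Ndufa8 (0.12), Ndufaf7 (-0.0033) and Cyc1 (-0.0116) changed sign with the finer place correction. So did Cox6a2 (0.08) and Ndufv1 (0.02), which passed in neither. Sdha (0.0111) changed sign with the correction by remainder of 8. Ndufa2 and Ndufv2, named outside the rule, turned with the finer place correction (0.35 and 0.15) and with that by remainder of 8 (0.20 and 0.30). Of 55 named members, some of which had not passed as deposited, 23 no longer passed with a minimum change of 0.2. Over all probes, the shares fell from 37.4% to 14.6% higher and from 37.6% to 18.6% lower. Median centring moved no call of a named member, but could hardly do so, since each array had a median of -0.0015. Annotated symbols gave the same members, since the update changed no member symbol. The causes were not tested. Alternatives with the finer place correction and without pairs of near identifiers were chosen after seeing the data.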
